A study of Mus musculus with 52 samples.

Results

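Rab GTPases are small switch proteins that mark the membranes of the endocytic and secretory routes, and the EH-domain proteins Ehd1 and Ehd4 are ATPases that shape endosomal tubules. The 53 genes described here are the 51 entries of the count table whose symbol is Rab followed by digits and an optional letter and digit, together with Ehd1 and Ehd4, out of 20995 genes with at least 1 count. The rule that chose them uses names and no measured value, but the members were chosen with earlier results of these data known. Together they held 0.449% of all counts, between 0.382% and 0.559% per library.

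Each Rab cycles between a GDP-bound form, kept soluble by GDP dissociation inhibitors (GDI), and a GTP-bound form on the membrane. Guanine nucleotide exchange factors switch it on, GTPase-activating proteins switch it off, and effectors such as tethers and motor adaptors bind the active form. Type 1 conventional dendritic cells (cDC1) take up dead cells and present their antigens on MHC class I (cross-presentation). This work depends on endosomes, phagosomes and recycling compartments that carry distinct Rabs.

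The cells were CD103+ cDC1 grown from C57BL/6J mouse bone marrow with FLT3 ligand and GM-CSF and purified by sorting. RNA was measured in bulk by 3′-end sequencing with molecular barcodes. The study compared cells exposed to prostaglandin E2 (PGE2), a lipid made by cyclooxygenases, with untreated cells. It also used PGE2 receptor antagonists, the conditioned medium (CM) of melanoma cells, and activation by poly I:C, a double-stranded RNA mimic that binds TLR3.

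There were 13 groups of 4 libraries. At 4 h these were PGE2 at 100 ng/ml, PGE2 with each of 5 antagonist treatments, control CM of BRAFV600E melanoma cells, PGE2-deficient CM of such cells lacking Ptgs1 and Ptgs2, and untreated cells. Antagonists were given at 5 µM 30 min before PGE2: SC-19220 for EP1, PF-04418948 for EP2, L-826,266 for EP3 and L161,982 for EP4. The titles of the combined group name EP2 and EP4, whereas its treatment label names SC-19220, the agent of the EP1 group, with L161,982. This group is called EP2+EP4 here after its title, and which agents it received is not settled by the labels. At 24 h the groups were PGE2 with poly I:C, poly I:C, PGE2 and untreated cells, poly I:C having been present at 10 µg/ml for the last 4 h. The labels call the 4 libraries of a group biological replicates and say nothing of separate animals or cultures. Each p-value rests on the spread between libraries within groups, pooled over all groups of a fit, and this spread may be technical.

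The median library held 295484.5 counts and the deepest 438491. The shallowest were EP4 antagonist A (42666) and untreated 4 h A (54107). Levels are CPM, counts scaled to a common library size by TMM over all 52 libraries and given as mean ± SD (n = 4). The floor behind a count of 0 is 3 counts, which on this scale ranged over libraries between 6.1 and 60.4 CPM with a median of 9.96, and covers counting error only. In libraries with poly I:C it was 12 to 17.4 CPM. A gene is said to rise or fall where the quasi-likelihood test of edgeR gave a Benjamini-Hochberg adjusted p of at most 0.05 over all genes tested, and every adjusted p below is from that test unless another is named. In bulk RNA, fewer cells of a type and less RNA per cell cannot be told apart. All 9 cDC1 markers on the list used had counts in untreated cells at both times, where the granulocyte and lymphocyte lists summed to at most 8.45 CPM in any library. Only 3 of 7 granulocyte genes and 4 of 6 lymphocyte genes listed were in the count table. In the untreated libraries the macrophage or monocyte list summed to 859.7 to 1617 CPM, mostly Lyz2, and the plasmacytoid dendritic cell list to 97.1 to 171 CPM. The cDC2 list summed to 19.99 to 113 CPM. Whether these came from other cells or from the cDC1 themselves was not tested.

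Of the 53 members, 33 reached a mean of 20 CPM in at least 1 group, and Rab3b had no count. The filter on low counts left 29 members for testing at 4 h and 28 at 24 h. A member can pass that filter through the group in which it is high, so the counts below refer to tested members only. Among well-measured members, Rab19, Rab20, Rab5a and Rab12 were not tested at either time and Rab31 only at 4 h. The steadiest well-measured members across the 13 groups were Rab14, which works between endosomes and Golgi, at 214 to 285 CPM, and Rab35, an endocytic recycling Rab, at 58.3 to 78.8 CPM. Ehd1 spanned 78.5 to 1363 CPM, Rab29 17.4 to 229.8 CPM, Rab8b 76.5 to 956 CPM and Rab32 18.2 to 226 CPM. The other 20 members stayed under 20 CPM in every group. Among these was Rab43, which mouse cDC1 need for efficient cross-presentation, at 3.66 to 11.9 CPM, a level close to the limit of detection.

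The changes turned on Rab8b, Ehd1, Rab32 and, with poly I:C, on members such as Rab29 and Rab21. In GRCm38 coordinates, Rab8b lies on chromosome 9 from 66843664 to 66919687 on the minus strand, Ehd1 on chromosome 19 from 6276725 to 6300096 on the plus strand, and Rab32 on chromosome 10 from 10545002 to 10558265 on the minus strand. Rab7b lies on chromosome 1 from 131688695 to 131715439 and Rab29 close by from 131867224 to 131872887, both on the plus strand. No exon of these 5 genes overlaps another annotated gene. RefSeq promoters of GRCm38.p6, 250 bases before to 50 after the start, were found for 44 members, and Ehd1 and Rab7b were not among them. The 4 shown are those of 2 members that moved with PGE2 (Rab8b and Rab32) and of 2 that rose with poly I:C (Rab29 and Rab21), so that a reader can compare them. These are examples and not separate classes, as with poly I:C Rab8b also rose and Rab32 fell. Capitals mark TGACG, a cyclic AMP response element core, and CACGTG, an E-box, each searched on both strands, and the first TGACG of Rab21 shares letters with its CACGTG. They are chr9:66919656-66919955 (minus strand), chr10:10558158-10558457 (minus), chr1:131867027-131867326 (plus) and chr10:115315542-115315841 (minus).
Rab8b: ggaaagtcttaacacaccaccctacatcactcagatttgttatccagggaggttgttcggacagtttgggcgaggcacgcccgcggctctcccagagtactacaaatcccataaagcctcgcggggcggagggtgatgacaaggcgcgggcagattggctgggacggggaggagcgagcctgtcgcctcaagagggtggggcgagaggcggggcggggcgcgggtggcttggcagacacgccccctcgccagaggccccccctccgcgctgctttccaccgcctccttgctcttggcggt
Rab32: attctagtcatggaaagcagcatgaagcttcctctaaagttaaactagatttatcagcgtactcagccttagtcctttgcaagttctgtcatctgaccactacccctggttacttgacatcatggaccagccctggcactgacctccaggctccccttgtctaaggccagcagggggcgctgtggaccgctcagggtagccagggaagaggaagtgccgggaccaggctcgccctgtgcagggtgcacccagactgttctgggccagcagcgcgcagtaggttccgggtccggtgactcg
Rab29: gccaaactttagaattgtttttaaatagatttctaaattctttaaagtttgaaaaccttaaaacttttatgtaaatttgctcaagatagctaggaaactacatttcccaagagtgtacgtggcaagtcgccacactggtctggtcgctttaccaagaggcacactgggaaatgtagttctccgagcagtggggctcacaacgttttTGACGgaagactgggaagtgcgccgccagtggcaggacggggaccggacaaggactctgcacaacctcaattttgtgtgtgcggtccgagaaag
Rab21: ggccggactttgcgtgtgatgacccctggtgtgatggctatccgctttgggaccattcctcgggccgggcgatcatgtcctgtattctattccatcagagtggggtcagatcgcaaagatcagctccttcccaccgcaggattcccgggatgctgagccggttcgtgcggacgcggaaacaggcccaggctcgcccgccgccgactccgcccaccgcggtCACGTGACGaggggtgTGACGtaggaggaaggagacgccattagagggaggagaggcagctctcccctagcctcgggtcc

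The windows of Rab8b and Rab32 held neither motif, and those of Rab29 and Rab21 held TGACG. Members that rose with poly I:C included some with TGACG, such as Rab10 and Rab11a, and some without it, such as Rab8b, Rab22a and Rab9. Of 32851 RefSeq promoters of this length, 20.8% held TGACG, as did 26 of the 53 promoters of members. CACGTG was in 7.15% of all promoters and in 6 of members (Rab20, Rab21, Rab23, Rab24, Rab27a and Rab5a). GAAANNGAA, an interferon response core, was in 8.56% of all promoters and in those of Rab19 and Rab20. A match is a description of letters and not a binding site.

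PGE2 for 4 h, compared with untreated cells, raised 2 members, Rab8b and Ehd1, and lowered Rab32. Rab8b, a Rab of the exocytic and recycling route to the plasma membrane, had 278, 309, 239.6 and 317 CPM in PGE2 cells, against 136, 60.3, 68.5 and 71.3 CPM in untreated cells. Every PGE2 library was above every untreated library, and untreated A, 1 of the shallowest libraries, stood above the other untreated libraries. The log2 fold change was 1.95 ± 0.22 (SE, adjusted p = 2.76e-13). Ehd1, which returns receptors from the recycling endosome to the surface, had 344, 313, 326 and 378 CPM in PGE2 cells, against 136, 93.8, 114 and 114 CPM in untreated cells. Its groups did not overlap either, and its log2 fold change was 1.61 ± 0.18 (adjusted p = 5.18e-13). Rab32, a Rab of lysosome-related organelles and mitochondria-associated membranes, had 113, 87.9, 101 and 144 CPM in PGE2 cells, against 226, 191, 177 and 182 CPM in untreated cells. Its level was lower in all 4 PGE2 libraries, with a log2 fold change of -0.79 ± 0.22 (adjusted p = 0.0065). Without PGE2 library B the adjusted p of Rab32 was 0.0594.

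These were 3 of 29 members tested, while 5.21% of all 5754 genes tested rose and 3.35% fell. The median log2 fold change of the tested members was 0.01, and that of all genes tested was -0.01. Rab7b, which in macrophages sends Toll-like receptors to lysosomes, had 372 ± 38 CPM in PGE2 cells and 356 ± 54.6 CPM in untreated cells. At 4 h the 9 group means of Rab7b lay between 342 and 396 CPM. The summed level of the 9 cDC1 markers was 3625 to 4252 CPM in PGE2 libraries and 6576 to 7356 CPM in untreated libraries. This difference moved with the same contrast, and its part in the Rab and Ehd results was not tested.

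Of 141 regulators and effectors of Rabs on 5 lists chosen with earlier results of these data known, 60 were tested at 4 h. With PGE2 4 rose and 2 fell, where 5.21% and 3.35% of all genes did. Gdi2, which extracts GDP-bound Rabs from membranes, averaged 2831 ± 159 CPM in PGE2 cells and 1494 ± 82.0 CPM in untreated cells (log2 fold change 0.91 ± 0.11, adjusted p = 9.29e-12). Dennd4a, an exchange factor of Rab10, averaged 77.0 ± 8.25 CPM in PGE2 cells and 32.7 ± 12.4 CPM in untreated cells (adjusted p = 0.0109). Wdfy4, a BEACH protein needed for cross-presentation by cDC1 and also 1 of the 9 cDC1 markers, fell by 0.78 on the log2 scale (adjusted p = 0.00215). Rab11fip4, an effector of Rab11, fell by 0.98 (adjusted p = 0.0118).

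**Figure D1:**
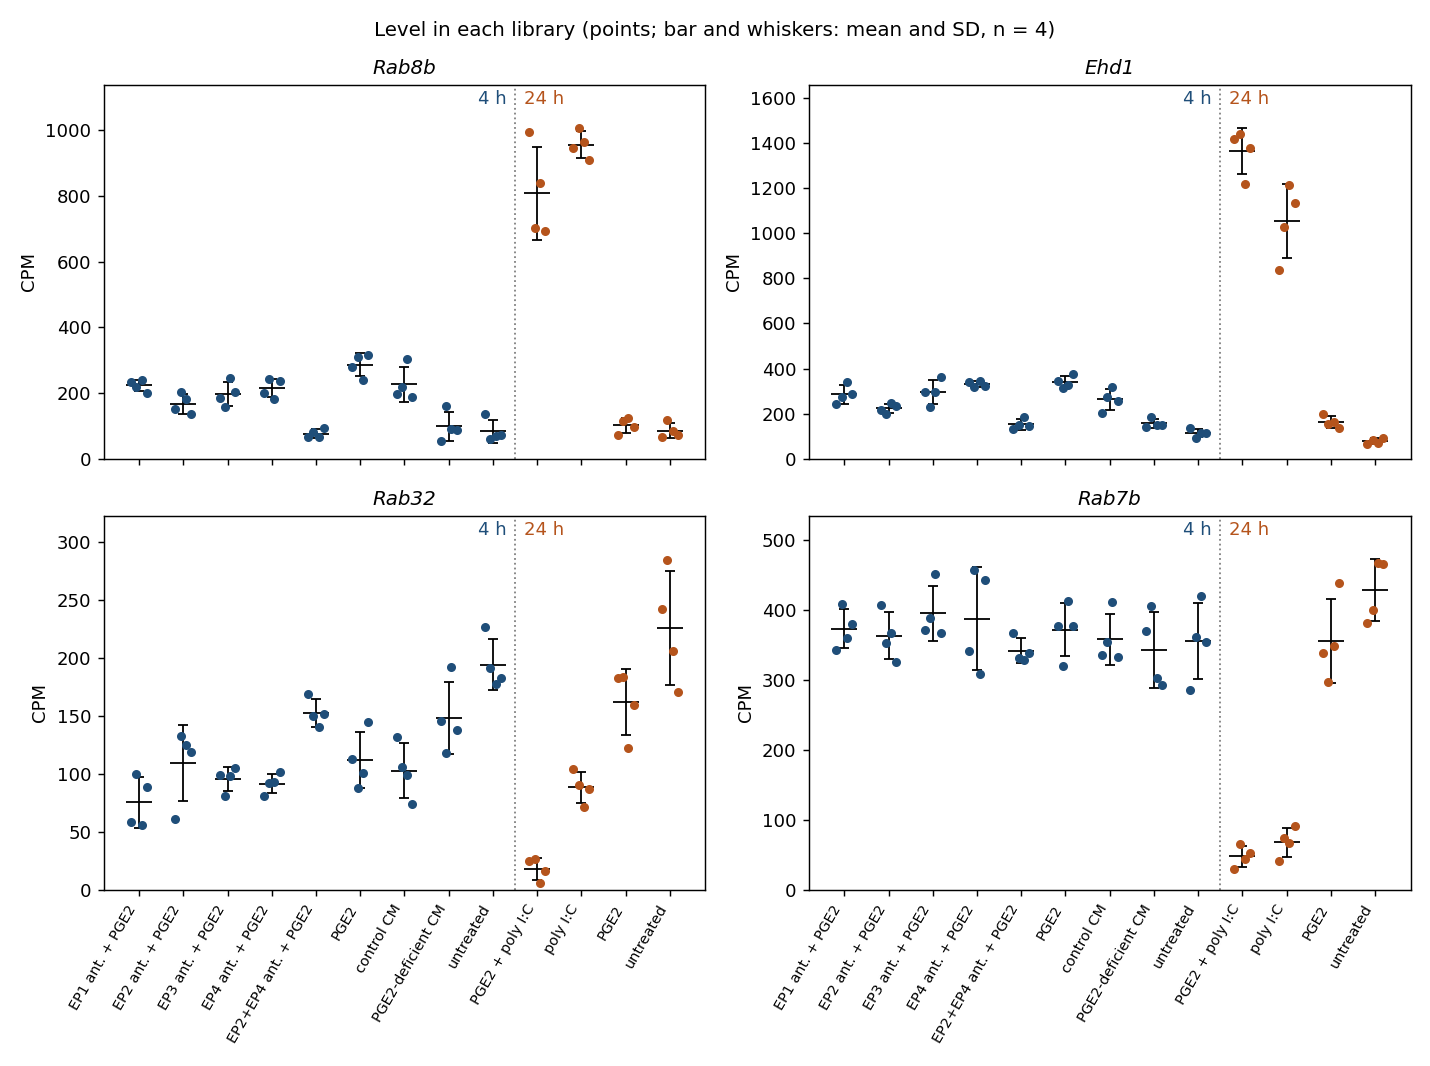
Levels of Rab8b, Ehd1, Rab32 and Rab7b in CPM in each of the 13 groups, with 1 point per library and the mean and SD (n = 4) as bar and whiskers, 4 h groups in blue and 24 h groups in orange. Rab8b and Ehd1 reached 956 and 1053 CPM with poly I:C, where Rab7b averaged 67.9 CPM, and Rab32 was lowest with PGE2 and poly I:C at 18.2 CPM.

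Control CM, from melanoma cells able to make PGE2, was set against PGE2-deficient CM to ask which effects of tumour medium went with cyclooxygenase activity of the tumour cells. The same 2 members rose, Rab8b and Ehd1, and none fell. Rab8b had 197, 219, 305 and 188 CPM with control CM, against 54.2, 160.5, 91.9 and 88.7 CPM with PGE2-deficient CM. The libraries did not overlap, although deficient CM B lay close to the control CM range. The log2 fold change was 1.19 ± 0.20 (adjusted p = 5.39e-06). Ehd1 had 205, 274, 317 and 257 CPM with control CM, against 143, 185, 148 and 151 CPM with PGE2-deficient CM, again without overlap (0.75 ± 0.17, adjusted p = 0.00117). Rab32 averaged 102 ± 23.7 CPM with control CM and 148 ± 31.2 CPM with PGE2-deficient CM, and this difference did not pass the test (adjusted p = 0.176). Over all genes tested 2.43% rose and 1.51% fell. The cDC1 marker sum was 4616 to 5064 CPM with control CM and 5540 to 7830 CPM with PGE2-deficient CM, and the part of this difference in the result was not tested. The melanoma list, with 4 of its 7 genes in the count table, had counts for 1 of them in each group and none for Dct. It summed to 35.5 to 62.1 CPM with control CM and 3.29 to 21.2 CPM with PGE2-deficient CM. Over all libraries its counts were mostly Kit (356, against 18 for Mitf and 12 for Pmel). Without melanoma medium Kit averaged 38.8 CPM in PGE2 cells and 18.3 CPM in untreated cells at 4 h. Whether these counts came from melanoma cells was not tested.

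Against untreated cells, control CM raised Rab8b by 1.63 ± 0.22 on the log2 scale (adjusted p = 1.72e-09) and Ehd1 by 1.25 ± 0.19 (adjusted p = 3.15e-08) and lowered Rab32 with a log2 fold change of -0.90 ± 0.21 (adjusted p = 0.00137). Rab32 had 131, 106, 98.8 and 73.7 CPM with control CM, all below the 177 to 226 CPM of untreated cells. In this contrast 4.81% of all genes rose and 2.75% fell. PGE2-deficient CM against untreated cells called no member, with 1 member at an unadjusted p under 0.05, and DESeq2 also called 0. The background at the adjusted threshold was 0.0695% of genes higher and 0.0174% lower. There the log2 fold changes were 0.44 for Rab8b (adjusted p = 0.816), 0.50 for Ehd1 (adjusted p = 0.505) and -0.36 for Rab32 (adjusted p = 0.816). The contrasts of control CM share the control CM libraries, and those with untreated cells share the untreated libraries.

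Among the regulators, Gdi2 averaged 2862 ± 147 CPM with control CM, 1940 ± 241 CPM with PGE2-deficient CM and 1494 ± 82.0 CPM in untreated cells. It rose in control CM against deficient CM by 0.56 (adjusted p = 5.33e-05), 1 of 3 regulators called there with Rab11fip1, an effector of Rab11, and Madd, an exchange factor of Rab3 and Rab27. Against untreated cells 3 regulators rose with control CM, among them Dennd4a (1.43, adjusted p = 0.000805), and 1 fell, Hps4, part of the exchange factor of Rab32 and Rab38 (-1.14, adjusted p = 0.0138).

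Antagonists were tested against PGE2 alone, to ask which EP receptor carried each PGE2 effect. The combined EP2+EP4 group lowered Rab8b and Ehd1, the EP2 antagonist lowered both as well, and no member was called with the EP1, EP3 or EP4 antagonist alone. Rab8b had 65.0, 80.7, 67.4 and 92.8 CPM in the EP2+EP4 group, against 278, 309, 239.6 and 317 CPM with PGE2 alone. Untreated cells at 4 h had 60.3 to 71.3 CPM in libraries B, C and D and 136 CPM in the shallow library A, so that 2 of the EP2+EP4 libraries lay above B, C and D and all 4 lay below A. The log2 fold change against PGE2 was -1.88 ± 0.20 (adjusted p = 9.73e-15). Ehd1 had 130, 149.8, 186 and 147 CPM in the EP2+EP4 group, against 313 to 378 CPM with PGE2 alone (-1.15 ± 0.16, adjusted p = 4.17e-09). Of the 4 Ehd1 values, 1 lay within the untreated range of 93.8 to 136 CPM and 3 lay above it. Rab32 had 169, 149.8, 140.1 and 152 CPM in the EP2+EP4 group and 113, 87.9, 101 and 144 CPM with PGE2 alone, and did not pass the test (0.49 ± 0.21, adjusted p = 0.136). Of all genes, 4.21% rose and 5.32% fell in the EP2+EP4 group. The cDC1 marker sum was 5459 to 5752 CPM in the EP2+EP4 group and 4338 to 5050 CPM with the EP2 antagonist, against 3625 to 4252 CPM with PGE2 alone. The macrophage or monocyte sum was 1283 to 1665 CPM in the EP2+EP4 group and 1160 to 1320 CPM with the EP2 antagonist, against 883 to 1136 CPM with PGE2 alone. The part of these markers in the results was not tested. All 9 regulators that were called fell there, led by Gdi2 at 1713 ± 63.7 CPM in the EP2+EP4 group and 2831 ± 159 CPM with PGE2 alone (adjusted p = 3.09e-08).

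With the EP2 antagonist, Rab8b had 151, 204, 181 and 135 CPM, against 239.6 to 317 CPM with PGE2 alone (-0.76 ± 0.18, adjusted p = 0.0188). Ehd1 had 216, 198, 246 and 232 CPM with the EP2 antagonist, against 313 to 378 CPM with PGE2 alone (-0.60 ± 0.16, adjusted p = 0.0459). In both genes every EP2 antagonist library was below every PGE2 library and above the group mean of untreated cells. Both calls depended on single libraries. That of Rab8b was lost without PGE2 A, B or D or EP2 antagonist A or D (adjusted p 0.0511 to 0.161), and that of Ehd1 without any PGE2 library or EP2 antagonist A, B or D (0.0761 to 0.205). The background was 0.0869% of genes higher and 0.33% lower. The direct contrast of the EP2+EP4 group with the EP2 antagonist group was not tested.

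The remaining single antagonists left Rab8b and Ehd1 above untreated cells in every library. Rab8b averaged 223 ± 17.4 CPM with the EP1 antagonist, 198 ± 36.2 CPM with the EP3 antagonist and 215.5 ± 28.3 CPM with the EP4 antagonist, against 286 ± 35.1 CPM with PGE2 alone. The log2 fold changes of Rab8b were -0.34 (adjusted p = 0.973), -0.53 (0.264) and -0.38 (0.835) in that order. Ehd1 averaged 285 ± 41.0, 296 ± 54.1 and 332 ± 13.1 CPM with the EP1, EP3 and EP4 antagonists, against 340 ± 28.0 CPM with PGE2 alone. A p that misses the threshold does not show that these antagonists had no effect. The number of members at an unadjusted p under 0.05 was 0, 1 and 2 with the EP1, EP3 and EP4 antagonists, and DESeq2 called 0 members. At the adjusted threshold, 0% of all genes rose and 0% fell with the EP1 antagonist. These shares were 0.0174% and 0.0521% with the EP3 antagonist, and 0.0174% and 0.0174% with the EP4 antagonist. No regulator was called with any single antagonist.

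**Figure D2:**
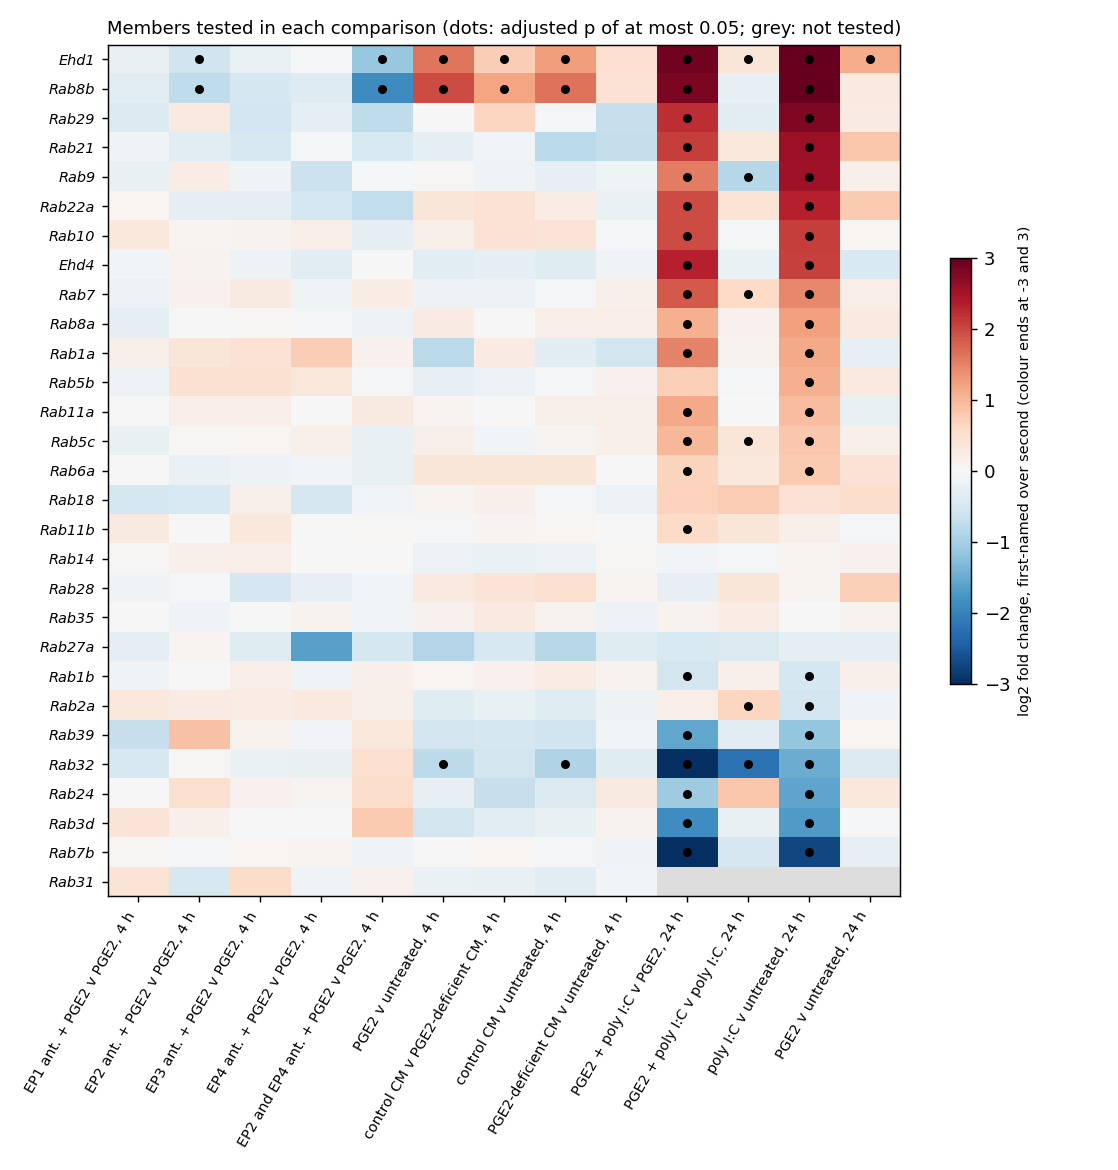
Log2 fold changes of the 29 tested members (down the page) in 13 comparisons (across), with the colour scale ending at -3 and 3, a dot where the adjusted p was at most 0.05, and grey where a member was not tested. At 4 h the dots fall on Rab8b, Ehd1 and Rab32, and with poly I:C they fall on 22 of 28 members.

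After 24 h of PGE2 only Ehd1 was called among 28 members, and it was higher. Ehd1 had 197, 155, 162 and 135 CPM in PGE2 cells, against 67.2, 84.5, 70.4 and 91.9 CPM in untreated cells (1.11 ± 0.18, adjusted p = 6.94e-07). Rab8b had 72.1, 114, 126 and 96.5 CPM in PGE2 cells and 67.2, 118, 84.5 and 72.2 CPM in untreated cells, ranges that overlap (0.28 ± 0.21, adjusted p = 0.505). Rab32 had 183, 183, 122.5 and 159 CPM in PGE2 cells and 242, 285, 206 and 171 CPM in untreated cells (-0.44, adjusted p = 0.123), and was called when only these 2 groups were fitted. A second member was called without untreated 24 h B (Rab6a) or D (Rab19). A total of 7 members had an unadjusted p under 0.05, a threshold at which all genes were not counted, so no background stands beside it. At the adjusted threshold, 4.74% of all genes rose and 3.22% fell. The sums of the cDC1, cDC2, macrophage or monocyte and melanoma lists moved with PGE2 at 24 h without overlap. Those of the plasmacytoid dendritic cell, granulocyte and lymphocyte lists overlapped. The cDC1 sum was 3834 to 3990 CPM in PGE2 libraries and 6406 to 6901 CPM in untreated libraries. The cDC2 sum was 172 to 236.5 CPM in PGE2 libraries and 72.2 to 113 CPM in untreated libraries. In untreated cells at 24 h it was mostly Cd209a, at 75.6 CPM of a mean sum of 88.7 CPM. The macrophage or monocyte sum was 1740 to 2067 CPM in PGE2 libraries and 1183 to 1617 CPM in untreated libraries. Over all libraries the melanoma list was mostly Kit, and it again had no count for Dct. It summed to 30.5 to 61.2 CPM in PGE2 libraries and 6.56 to 28.2 CPM in untreated libraries. The part of these marker sums in the Ehd1 result was not tested. The median log2 fold change was 0.16 over tested members and 0.03 over all genes.

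The PGE2 effect at 24 h was set against that at 4 h in a joint fit of these 4 groups. For Rab8b the effect at 24 h minus that at 4 h was -1.69 ± 0.31 on the log2 scale (adjusted p = 4.08e-05), the only difference called among 29 members. For Ehd1 the difference was -0.51 ± 0.28 (adjusted p = 0.371). Over all genes 2.11% of differences were called positive and 2.24% negative. Untreated cells at 24 h against untreated cells at 4 h called Rab3d alone, a Rab of secretory granules. It had 48.4, 113, 87.4 and 65.6 CPM in untreated cells at 24 h, against 15.1, 26.8, 48.6 and 39.6 CPM in untreated cells at 4 h (1.06 ± 0.31, adjusted p = 0.0238). The groups overlapped narrowly, and the call was lost without untreated 24 h B or C or untreated 4 h B or D (adjusted p 0.0585 to 0.204). In that contrast 2.3% of genes rose and 2.04% fell. Time in culture cannot be told apart from anything else that differed between these sets of libraries.

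At 24 h, PGE2 raised 5 regulators and lowered 1 of 60 tested, where 4.74% of all genes rose and 3.22% fell. Tbc1d4, a GTPase-activating protein of Rab8, Rab10 and Rab14, averaged 118 ± 20.1 CPM in PGE2 cells and 45.7 ± 6.74 CPM in untreated cells (adjusted p = 2.37e-06). Dennd4a averaged 83.1 ± 15.6 CPM in PGE2 cells and 30.4 ± 9.20 CPM in untreated cells (adjusted p = 7.06e-05). Rilpl2, on the list of effectors, averaged 64.6 ± 16.8 CPM in PGE2 cells and 23.55 ± 6.78 CPM in untreated cells (adjusted p = 0.00014). Gdi2 was again higher, at 1887 ± 100.5 CPM in PGE2 cells and 1457 ± 104 CPM in untreated cells (0.41, adjusted p = 0.000435). The PGE2 effect on Gdi2 at 24 h minus that at 4 h was -0.52 (adjusted p = 0.00735).

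Poly I:C for the last 4 h changed most members. Of 28 tested, 15 rose and 7 fell in comparison with untreated cells, where 31.3% of all genes rose and 33.7% fell. The median log2 fold change was 0.80 over tested members and -0.10 over all genes. With library totals alone in place of TMM, the median of all genes moved to -0.88, 975 genes rose and 3087 fell, against 1651 and 1777 with TMM. In that scaling 10 members rose and 11 fell, with a median of 0.03. The same 10 rises and 7 falls were called under both scalings, and no member was called in opposite directions.

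Among recycling and exocytic members, Ehd1 and Rab8b rose most. Ehd1 had 836, 1027, 1212 and 1135 CPM with poly I:C, against 67.2, 84.5, 70.4 and 91.9 CPM in untreated cells (3.64 ± 0.15, adjusted p = 7.67e-58). Rab8b had 946, 1005, 965 and 907 CPM with poly I:C, against 67.2, 118, 84.5 and 72.2 CPM in untreated cells (3.36 ± 0.16, adjusted p = 1.49e-50). In both genes the lowest poly I:C library was several times above the highest untreated library. Rab10, which serves exocytosis and, in macrophages, the return of TLR4 to the surface, averaged 495 ± 67.3 CPM with poly I:C and 109 ± 12.8 CPM in untreated cells (2.07 ± 0.17, adjusted p = 4.97e-25). Ehd4, a relative of Ehd1 on early endosomes, averaged 418 ± 113 CPM with poly I:C and 93.0 ± 12.8 CPM in untreated cells (2.04 ± 0.18, adjusted p = 4.62e-21). Rab8a, close in sequence and function to Rab8b, averaged 764 ± 65.1 CPM with poly I:C and 301 ± 35.6 CPM in untreated cells (1.24 ± 0.13, adjusted p = 2.65e-17). Rab11a, which marks the recycling endosome where dendritic cells store MHC class I, averaged 1190 ± 179 CPM with poly I:C and 582 ± 37.1 CPM in untreated cells (0.92 ± 0.11, adjusted p = 3.7e-14), a rise not called with library totals alone (0.15, adjusted p = 0.202).

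Of the early endosome members, Rab21 and Rab22a rose under both scalings, and Rab5c and Rab5b with TMM but not with library totals alone. Rab21, which guides integrin traffic, had 203, 90.3, 233 and 182 CPM with poly I:C, against 32.2, 31.0, 22.5 and 23.0 CPM in untreated cells (2.57 ± 0.28, adjusted p = 3.82e-16). The poly I:C libraries were spread widely, but each exceeded all untreated libraries. Rab22a, which acts in early endosomes and in the recycling of MHC class I, had 145, 84.7, 80.8 and 77.5 CPM with poly I:C, against 13.1 to 22.5 CPM in untreated cells (2.33 ± 0.36, adjusted p = 2.81e-09). Rab5c, an isoform of the early endosome Rab5, averaged 583 ± 89.5 CPM with poly I:C and 308 ± 14.4 CPM in untreated cells (0.81 ± 0.13, adjusted p = 1.39e-08). Its log2 fold change was 0.04 with library totals alone (adjusted p = 0.799). Rab5b averaged 52.5 ± 7.20 CPM with poly I:C and 23.3 ± 8.75 CPM in untreated cells (1.06 ± 0.40, adjusted p = 0.0144), a call lost without untreated library A (0.0621) and with library totals alone (0.505). Rab5a was below the filter, with 22 counts in the poly I:C libraries together and 6 in the untreated libraries.

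The members of late endosomes and lysosomes went both ways. Rab7, the main Rab of late endosomes and lysosomes, had 615, 587, 504 and 575 CPM with poly I:C, against 207, 197, 186 and 187 CPM in untreated cells (1.44 ± 0.14, adjusted p = 1.22e-18). Rab7b, which acts between endosomes and Golgi, moved the other way, with 40.6, 73.4, 66.5 and 91.2 CPM with poly I:C, against 381.5, 400.1, 468 and 466 CPM in untreated cells (-2.73 ± 0.20, adjusted p = 4.73e-28). Rab29, which recruits the kinase LRRK2 to the Golgi and to stressed lysosomes, had 215, 203, 214 and 287 CPM with poly I:C, against 56.4, 14.1, 25.4 and 23.0 CPM in untreated cells (2.81 ± 0.26, adjusted p = 8.38e-20). Lrrk2 itself, named here after its values were seen, had no count in the 4 poly I:C libraries, each count of 0 allowing up to 3 counts, against 28.2 to 65.6 CPM in untreated libraries. Rab9, which returns receptors from late endosomes to the Golgi, had 81.3, 129.8, 171 and 150.5 CPM with poly I:C, against 13.4, 16.9, 19.7 and 36.1 CPM in untreated cells (2.54 ± 0.33, adjusted p = 6.25e-12). Rab32 had 104.5, 90.3, 71.3 and 86.6 CPM with poly I:C, against 242, 285, 206 and 171 CPM in untreated cells (-1.48 ± 0.22, adjusted p = 1.06e-09). Rab39, a Rab of late endosomes and phagosomes, averaged 20.6 ± 14.0 CPM with poly I:C and 43.6 ± 7.77 CPM in untreated cells (-1.17 ± 0.44, adjusted p = 0.0157), with overlapping ranges and a call lost without poly I:C library A (0.0993).

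Among Rabs of the early secretory route, the called members did not move together. Rab1a, which acts between endoplasmic reticulum and Golgi, averaged 103 ± 17.9 CPM with poly I:C and 43.3 ± 12.95 CPM in untreated cells (1.15 ± 0.29, adjusted p = 0.000339). Its close paralogue Rab1b averaged 142 ± 32.7 CPM with poly I:C and 189 ± 22.5 CPM in untreated cells (-0.54 ± 0.20, adjusted p = 0.0141). Rab2a, of the same route, averaged 131 ± 39.2 CPM with poly I:C and 179.5 ± 18.4 CPM in untreated cells (-0.54 ± 0.20, adjusted p = 0.0135). Ranges overlapped in Rab1b and Rab2a, and these calls were lost without poly I:C D for Rab1b (0.144) and without poly I:C A (0.0616) or B (0.129) for Rab2a. Rab6a, a Golgi Rab, averaged 268 ± 43.7 CPM with poly I:C and 143 ± 34.2 CPM in untreated cells (0.80 ± 0.18, adjusted p = 5.1e-05). With library totals alone the rises of Rab1a (0.37, adjusted p = 0.244) and Rab6a (0.02, adjusted p = 0.916) were not called.

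Rab3d, of secretory granules, had 23.2, 16.9, 38.0 and 22.8 CPM with poly I:C, against 48.4, 113, 87.4 and 65.6 CPM in untreated cells (-1.71 ± 0.36, adjusted p = 1.62e-05). Rab24, which has a role in autophagy, had 17.4, 16.9, 28.5 and 4.56 CPM with poly I:C, against 42.99, 42.3, 50.7 and 52.5 CPM in untreated cells (-1.57 ± 0.44, adjusted p = 0.00102). An exon of Rab24 overlaps Prelid1 on the opposite strand, and without a statement that counting used the strand, reads of the pair cannot be told apart. The same holds for Rab6a with Mrpl48, Rab7 with Gm5577, Rab10 with Rab10os, Rab22a with Mir6340 and Rab11b with Gm17251. Exons of Rab11a, Rab18 and Rab27a overlap a gene on the same strand (Gm47308, AC131796.2 and Gm27186), where use of the strand could not separate them. The 6 members not called were Rab18, Rab11b, Rab27a, Rab14, Rab28 and Rab35, with log2 fold changes between -0.30 and 0.44. With library totals alone Rab11b, Rab14, Rab27a and Rab35 were called lower.

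The members not called with poly I:C cover several routes. Rab11b, a paralogue of Rab11a, averaged 139 ± 21.7 CPM with poly I:C and 115 ± 18.6 CPM in untreated cells, and its group means over the study ran from 85.5 to 178.5 CPM. Rab27a, which tethers secretory lysosomes near the plasma membrane, averaged 35.9 ± 11.2 CPM with poly I:C and 41.1 ± 8.48 CPM in untreated cells. Rab18, found on lipid droplets and endoplasmic reticulum, averaged 36.4 ± 14.3 CPM with poly I:C and 24.4 ± 8.72 CPM in untreated cells. Rab28, known from cilia and photoreceptors, averaged 33.0 ± 10.9 CPM with poly I:C and 29.0 ± 14.1 CPM in untreated cells. In each of these 4 genes the ranges of poly I:C and untreated libraries overlapped.

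Some members under the filter had counts mainly in 1 condition. Rab20, a Rab of phagosome maturation, had 25 counts in the poly I:C libraries and 25 in those of PGE2 with poly I:C, against 2 in PGE2 libraries and 0 in untreated libraries at 24 h. Fitted without the filter it was called (adjusted p = 5.22e-08), as were Rab19 (1.87 ± 0.53, adjusted p = 0.00245) and Rab5a (2.49 ± 0.67, adjusted p = 0.00148). In that fit 1926 of 17409 genes were called higher and 2312 lower. Rab31, a Rab between Golgi and endosomes, was called lower (adjusted p = 0.0194), with 3 counts in the poly I:C libraries and 27 in untreated libraries. The group means of Rab12, which acts between recycling endosomes and lysosomes, ran from 3.06 to 25.6 CPM, highest with poly I:C, and without the filter its change did not pass the test (0.80, adjusted p = 0.371). Those of Rab19 ran from 6.03 to 42.4 CPM, also highest with poly I:C. Rab20 and Rab19 are the members whose promoters held the interferon response core, 2 of 53 member promoters against 8.56% of all promoters. Those of Rab8b, Rab22a, Rab21 and Rab29, which also rose with poly I:C, did not hold it. Whether the motif had a part in any change was not tested.

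**Figure D3:**
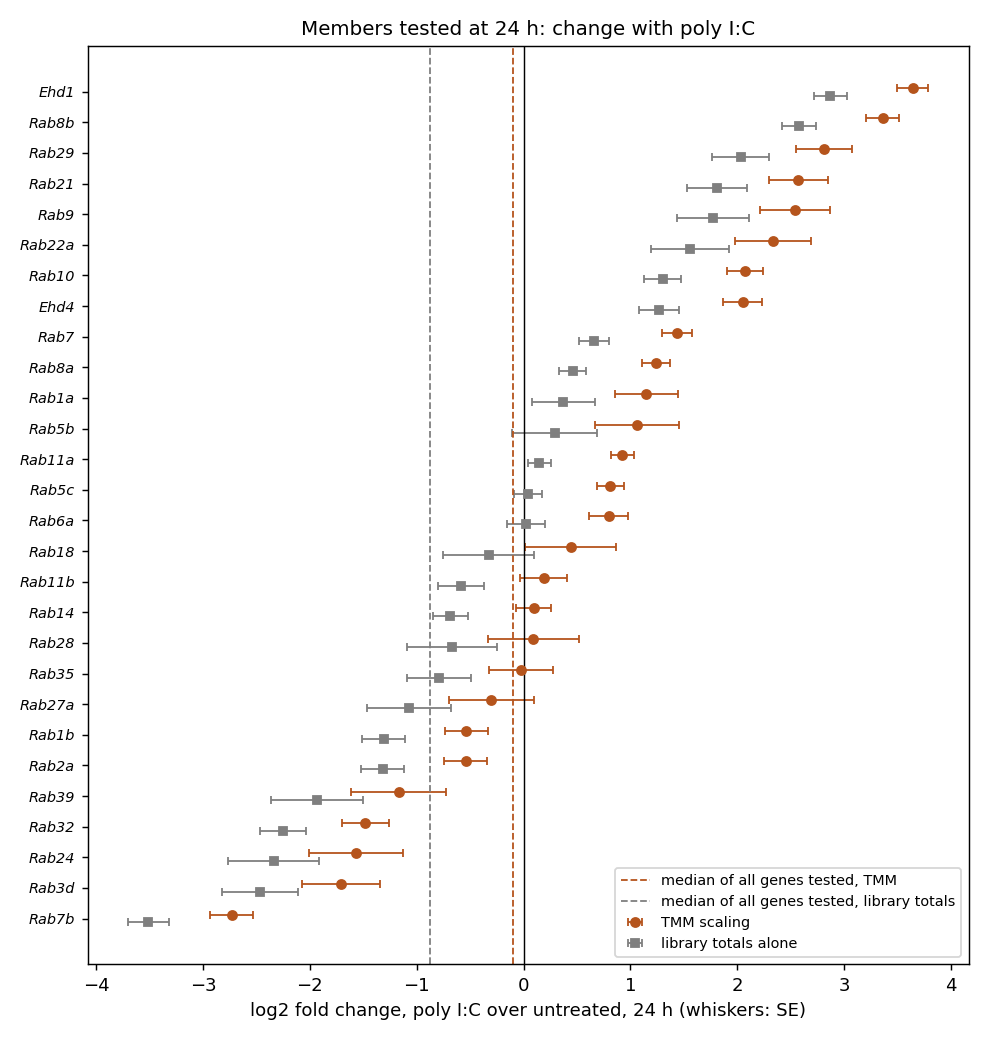
Log2 fold changes with SE of the 28 tested members, poly I:C over untreated cells at 24 h, under TMM scaling (circles) and with library totals alone (squares), with dashed lines at the median of all genes tested (-0.10 and -0.88). Ehd1 and Rab8b stand highest and Rab7b lowest under both scalings, and the smaller rises shift towards 0 or below it with library totals.

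Of the 60 regulators and effectors tested, 25 rose and 15 fell with poly I:C, where 31.3% of all genes rose and 33.7% fell. Their median log2 fold change was 0.40, against -0.10 over all genes. With library totals alone 14 rose and 25 fell, with a median of -0.36 against -0.88 over all genes, so the direction of the median depended on the scaling. The 4 genes named next kept their direction and call under both. Gdi2 averaged 682 ± 56.1 CPM with poly I:C and 1457 ± 104 CPM in untreated cells (-1.20, adjusted p = 3.06e-23), the opposite direction to that with PGE2. Optn, an effector of Rab8 and autophagy receptor, averaged 211.5 ± 58.5 CPM with poly I:C and 23.4 ± 8.93 CPM in untreated cells (3.03, adjusted p = 4.25e-21). Tbc1d8, of the GTPase-activating family, averaged 502 ± 34.8 CPM with poly I:C and 137 ± 31.9 CPM in untreated cells (1.75, adjusted p = 3.41e-21). Dennd5a, an exchange factor of Rab39, averaged 197 ± 32.0 CPM with poly I:C and 22.3 ± 8.63 CPM in untreated cells (3.0, adjusted p = 7.49e-20).

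Markers moved with poly I:C as well. The cDC1 sum was 3751 to 4574 CPM with poly I:C and 6406 to 6901 CPM in untreated libraries. The macrophage or monocyte sum was 492.5 to 672 CPM with poly I:C and 1183 to 1617 CPM in untreated libraries, with counts for 5 and 6 of 8 listed genes and none for Mertk. The cDC2 sum was 11.6 to 28.5 CPM with poly I:C and 72.2 to 113 CPM in untreated libraries. The plasmacytoid dendritic cell sum was 627 to 816 CPM with poly I:C and 109.9 to 171 CPM in untreated libraries, with counts for 4 of 5 listed genes in each group and none for Klk1. Over all libraries the counts of this list were mostly Bst2 (2234, against 278 for Tcf4, 187 for Ccr9 and 64 for Siglech). The part of these markers in the results was not tested.

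PGE2 with poly I:C, compared with poly I:C alone, called 6 members, 4 higher and 2 lower. Rab32 had 24.9, 26.2, 5.55 and 16.03 CPM with PGE2 and poly I:C, against 104.5, 90.3, 71.3 and 86.6 CPM with poly I:C alone (-2.20 ± 0.38, adjusted p = 1.58e-06). The groups did not overlap, and 5.55 CPM is below the 3-count floor of these libraries. Rab7 had 841, 815, 960.2 and 817 CPM with PGE2 and poly I:C, against 615, 587, 504 and 575 CPM with poly I:C alone (0.59 ± 0.12, adjusted p = 0.000134). Its groups were apart as well. These 2 calls held without any 1 library.

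The other 4 calls had larger adjusted p-values. Ehd1 had 1418, 1439, 1216 and 1378 CPM with PGE2 and poly I:C, against 836, 1027, 1212 and 1135 CPM with poly I:C alone (0.37 ± 0.11, adjusted p = 0.0124). Rab2a had 204, 214, 199.8 and 212 CPM with PGE2 and poly I:C, against 122, 79.0, 166 and 155 CPM with poly I:C alone (0.65 ± 0.21, adjusted p = 0.0268). Rab9 had 64.7, 113, 66.6 and 52.1 CPM with PGE2 and poly I:C, against 81.3, 129.8, 171 and 150.5 CPM with poly I:C alone (-0.85 ± 0.29, adjusted p = 0.0405). Rab5c had 702, 737, 688 and 849 CPM with PGE2 and poly I:C, against 586, 474, 579.8 and 693 CPM with poly I:C alone (0.35 ± 0.12, adjusted p = 0.0488). Ranges overlapped in Rab9 and Rab5c and not in Ehd1 and Rab2a. The call of Ehd1 was lost without poly I:C A or PGE2 with poly I:C A or B (0.0533 to 0.18), and that of Rab2a without poly I:C A or B or any library of PGE2 with poly I:C (0.0506 to 0.169). The call of Rab9 was lost without poly I:C B, C or D or PGE2 with poly I:C A, C or D (0.0666 to 0.17), and that of Rab5c without any library but poly I:C D (0.0707 to 0.26). Of all genes, 5.03% rose and 5.65% fell. Rab8b had 995, 702, 838 and 693 CPM with PGE2 and poly I:C and 907 to 1005 CPM with poly I:C alone, and was not called.

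**Figure D4:**
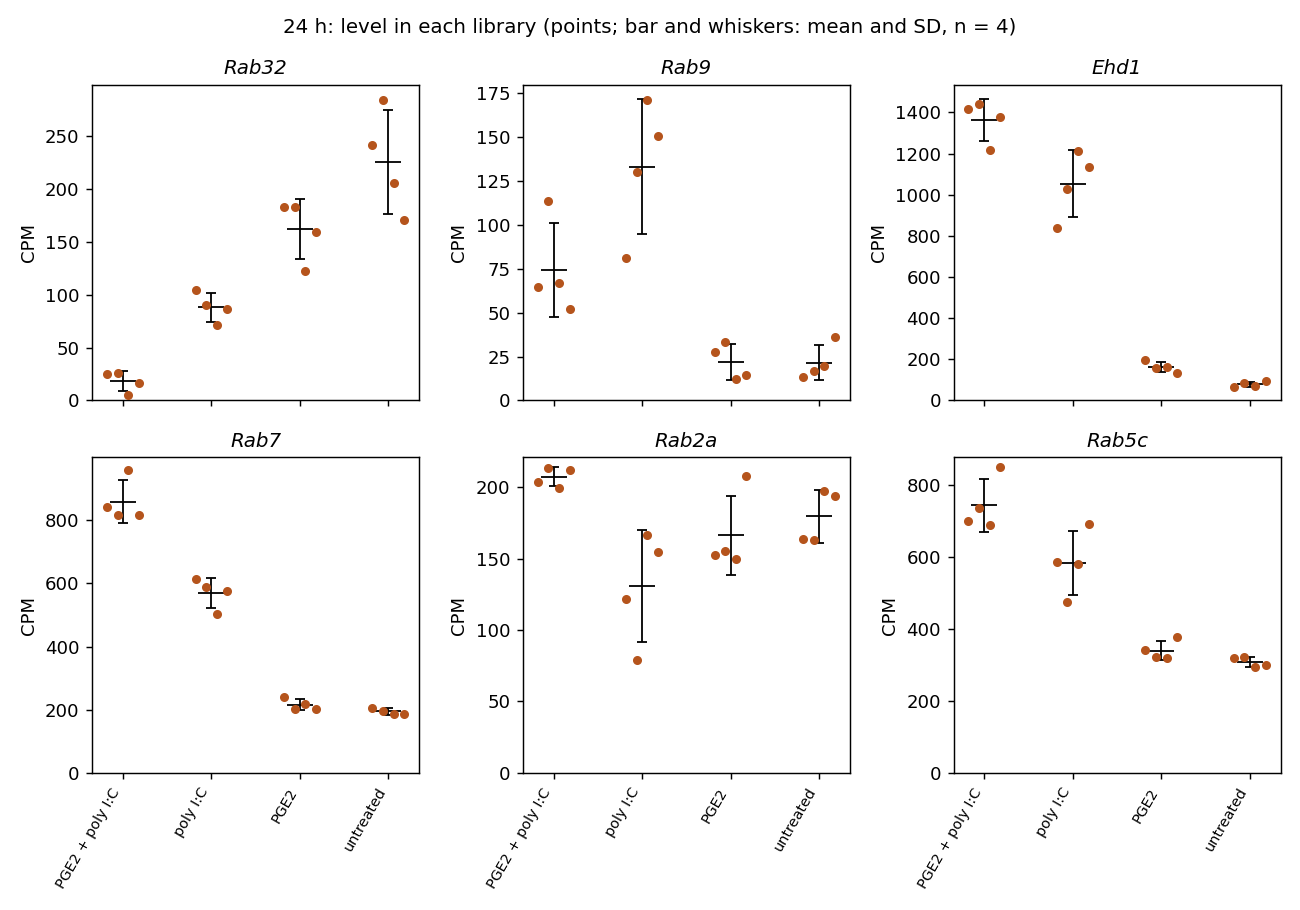
Levels in CPM of Rab32, Rab9, Ehd1, Rab7, Rab2a and Rab5c at 24 h with PGE2 and poly I:C, poly I:C, PGE2, and in untreated cells, with 1 point per library and the mean and SD (n = 4). Rab32 and Rab9 were lower with PGE2 and poly I:C than with poly I:C alone, and Rab7 and Rab2a were higher, at means of 858.5 and 207.5 CPM.

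Whether PGE2 acted differently in activated cells was tested by the interaction, the PGE2 effect with poly I:C minus the PGE2 effect without it. The interaction is on the log2 scale and compares ratios, not differences in CPM. It was called for 2 of 28 members, both negative, with 0.853% of all genes positive and 2.43% negative. For Rab32 it was -1.76 ± 0.43 (adjusted p = 0.00482), the PGE2 effect being -2.20 with poly I:C and -0.44 without. For Ehd1 it was -0.74 ± 0.21 (adjusted p = 0.0279), the PGE2 effect being 0.37 with poly I:C and 1.11 without. The Ehd1 call was lost without poly I:C C or D, PGE2 24 h A, PGE2 with poly I:C C, or untreated 24 h A or C (0.0703 to 0.127). Rab32 averaged 18.2 CPM with PGE2 and poly I:C, close to the 3-count floor of 12 to 16.7 CPM in those libraries. Rab2a (0.75, adjusted p = 0.126) and Rab8b (-0.53, adjusted p = 0.263) did not pass. Fitted without the filter, Rab19 was called too (-3.12 ± 0.77, adjusted p = 0.0189), where 25 of 17409 genes were called positive and 56 negative. Among the regulators Unc13d, a priming factor that binds Rab27a, was the only call (-1.60, adjusted p = 0.0087).

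With PGE2 and poly I:C against PGE2 alone, 15 members rose and 6 fell, where 30.8% of all genes rose and 34% fell. Medians were 0.70 over tested members and -0.11 over all genes. With library totals alone 11 members rose and 11 fell, where 890 of 5273 genes rose and 3085 fell. The median of all genes was then -0.88. Of the members called with TMM, Rab11b (-0.20, adjusted p = 0.394) and Rab6a (-0.12, adjusted p = 0.527) turned direction in that scaling. Rab2a (-0.57, adjusted p = 0.00422) and Rab35 (-0.67, adjusted p = 0.0278), not called with TMM, turned to called falls. Rab18 and Rab5b, called under neither scaling, turned as well. Rab9 (0.77, adjusted p = 0.0523) and Rab5c (0.23, adjusted p = 0.0938) lost their calls in that scaling. The largest rises were those of Ehd1 (2.90), Rab8b (2.83), Ehd4 (2.32), Rab29 (2.22) and Rab21 (2.07), and the largest falls those of Rab32 (-3.24) and Rab7b (-2.98). Rab10 (1.96), Rab22a (1.96), Rab7 (1.84), Rab9 (1.54), Rab1a (1.50), Rab11a (1.13), Rab8a (1.07), Rab5c (1.00), Rab6a (0.66) and Rab11b (0.58) also rose. Rab3d (-1.87), Rab39 (-1.56), Rab24 (-1.07) and Rab1b (-0.55) also fell. The call of Rab11b was lost without PGE2 24 h A (adjusted p = 0.0535) and that of Rab1b without PGE2 with poly I:C B (0.0712) or C (0.131). This contrast shares the libraries of PGE2 with poly I:C with the preceding one.

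Rab7b had 29.9, 65.4, 44.4 and 52.1 CPM with PGE2 and poly I:C, against 338, 297, 349 and 439 CPM with PGE2 alone. Its level was low in all 8 libraries that received poly I:C and no lower than 287 CPM in the other 44. Of 60 regulators tested, 4 rose and 1 fell with PGE2 and poly I:C against poly I:C alone, where 5.03% and 5.65% of all genes did. Tbc1d4 averaged 345 ± 37.7 CPM with PGE2 and poly I:C and 188 ± 47.5 CPM with poly I:C alone (adjusted p = 0.000165). Dennd4a averaged 275 ± 64.1 CPM with PGE2 and poly I:C and 155 ± 48.2 CPM with poly I:C alone (adjusted p = 0.00223). Rab3ip, an exchange factor of Rab8, fell (-1.12, adjusted p = 0.00519). The sum of cDC1 markers was 4113 to 4801 CPM with PGE2 and poly I:C and 3751 to 4574 CPM with poly I:C alone. The macrophage or monocyte sum was 398 to 461 CPM with PGE2 and poly I:C and 492.5 to 672 CPM with poly I:C alone. The cDC2 sum was 55.5 to 64.1 CPM with PGE2 and poly I:C and 11.6 to 28.5 CPM with poly I:C alone, and the plasmacytoid dendritic cell sum was 881 to 1232 CPM with PGE2 and poly I:C and 627 to 816 CPM with poly I:C alone. The last 3 sums did not overlap between the groups, and their part in these results was not tested. Bst2 held most counts of the plasmacytoid dendritic cell list over all libraries.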

How the data were processed

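Per the labels' protocols, the authors counted UMIs per gene with the Drop-seq pipeline on GRCm38 with Ensembl annotation from NextSeq 500 reads. The deposited values are whole-number counts, 1 column per library, with no normalisation. The submitters' processing notes name DESeq2 1.14.1 and GRCm38.p6, and the aligner and strand use were not given in the sources used here. Of 23136 lines, 1 with a text entry was left out, and 20 with symbols turned into dates (0.105% of counts) were named in no result. Replicate pairs differed by more than counting noise.

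edgeR 4.0.16, run in R 4.3.3 with limma 3.58.1, gave the main results (TMM scaling, genes kept by filterByExpr over the groups, robust quasi-likelihood F-test). P-values were adjusted by Benjamini-Hochberg over all genes of a fit. The 36 libraries at 4 h (5754 genes), the 16 at 24 h (5273 genes) and, for the times, the untreated and PGE2 libraries of both (5403 genes) made 3 fits with no covariate. SE is the size of the log2 fold change divided by the square root of its F. The scripts were tested on simulated data with known changes. Alternatives were DESeq2 1.42.0, library totals alone, no filter, a replicate block, leaving out each library or the shallow ones, and fitting only the groups compared. Levels describe all members with a mean of 20 CPM in a group, every called member was named, and at most 4 regulators were named per comparison. Lrrk2, described beside Rab29 under poly I:C, came in addition. Members and lists were chosen with earlier results of these data known. Gene coordinates came from GENCODE M21 and promoters from RefSeq, and neither Rab proteins nor a genome sequence was used here. Rabs are similar in sequence, and reads of a near-identical copy such as Rab7-ps1 (63 counts in all) may have been split from Rab7. Figures were drawn with matplotlib 3.10.9.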

Additional observations from a re-analysis of the deposited data

Results flagged for a closer look

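In 4 of 103 groups of 4 libraries tested, 1 library stood apart from the other 3, its gap to the nearest exceeding Dixon's critical share of the group's range. Chance gives about 1 such group in 20. Rab22a had 145.1 CPM in poly I:C library A, against 77.5 to 84.7 CPM in the other poly I:C libraries. Rab29 had 287.3 CPM in poly I:C library D, with 203 to 215 CPM in the others. Rab24 had 47.18 CPM in PGE2 24 h library B, with 61.0 to 62.8 CPM in the others. Rab8b had 135.7 CPM in untreated 4 h library A, a shallow library, with 60.3 to 71.3 CPM in the others. The part of depth in this value was not tested.

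On the log2 scale, the effect of PGE2 differed between conditions in 3 tests of the difference itself. With poly I:C minus without it, the log2 difference was -1.76 for Rab32 and -0.739 for Ehd1. At 24 h minus at 4 h, it was -1.686 for Rab8b.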

How the results depend on the processing

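With the letters A to D as a replicate block, every count of members called was the same as without it, for example 3 with PGE2 at 4 h, 22 with poly I:C and 6 with PGE2 and poly I:C against poly I:C. The labels do not say that a letter marks a shared culture. Same-letter correlations of deviations lay between -0.173 and 0.0743 at 4 h and between -0.0187 and 0.0568 at 24 h, none over 0.1. Their median was 0.00949 at 4 h and 0.0155 at 24 h, against -0.00389 and -0.00599 for pairs of other letters. At these times 18 of 36 and 11 of 16 libraries correlated best with their own letter. That is more than an even spread over the letters would give, a hint from the data and not from the design. With the EP2 antagonist, 1 member was called with library totals alone, 0 without the filter, and 0 to 2 when single libraries were left out. With PGE2 and poly I:C against poly I:C, 2 were called without the filter and 3 to 6 when single libraries were left out. For untreated cells at 24 h against 4 h, the fit without the filter called 0 and leaving out libraries gave 0 to 1. DESeq2 also called 0 there, but gave no adjusted p for 15 of 29 members, Rab3d included, so that count says little about Rab3d. With PGE2 at 24 h, fitting only both groups called 2 members, and leaving out libraries 1 to 2. Of the called members, Rab11b (-0.20) and Rab6a (-0.12) changed direction with library totals alone in PGE2 and poly I:C against PGE2. The cause was not tested. Leaving out 1 library in turn over 68 refits gave 552 values for called members, of which 499 kept their call, 53 lost it and 0 reversed. Of 339 values under the other settings, 315 kept their call. Without the shallow libraries no count of members called moved by over 1.5 times. The counts of regulators under library totals alone were added after seeing the data. Depth limits members near the 3-count floor, which is 13.7 to 17.4 CPM in the poly I:C libraries, and low calls there rest on few counts, such as 13 for Rab24.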
